A study of Mus musculus with 15 samples.

Results

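The genes described here are 5 calcium/calmodulin-dependent kinases (CaM kinases: Camk2a, Camk2b, Camk2d, Camk2g and Camk4) and 3 subunits of the phosphatase calcineurin (Ppp3ca, Ppp3cb and Ppp3r1). They were chosen by name, with every probe set annotated to each symbol alone, which gave 8 of the 18193 genes and 31 of the 34945 single-gene probe sets in the data. Their RNA levels come from Affymetrix 430 2.0 whole-genome mouse arrays, hybridized with amplified RNA of GFP-positive cells picked by hand from dissociated primary somatosensory cortex (S1) of G42 transgenic mice. The groups are postnatal day (P) 7, P10, P15, P25 and P40, with 3 arrays from 3 different mice at each age, and mice of up to P45 stand in the oldest group. All groups carry the same transgene and were untreated, so age is the one factor that the design varies. In this line GFP is driven by a Gad1 promoter and marks only part of the parvalbumin-class, fast-spiking interneurons. Each array pools the 23 to 85 cells picked from 1 mouse. The number of cells also differed between ages, at 52 to 85 for P7, 47 to 72 for P10 and 23 to 45 for P15. It was 48 to 55 for P25 and 38 to 60 for P40.

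CaM kinases and calcineurin read the same signal, calcium bound to calmodulin, with opposite chemistry. CaMKII is a large assembly of alpha, beta, gamma and delta subunits that phosphorylates synaptic proteins and can hold its own activity through autophosphorylation. CaMKIV is mainly nuclear, is switched on by a CaM kinase kinase and phosphorylates the transcription factor CREB. Calcineurin pairs a catalytic A subunit (Ppp3ca or Ppp3cb in brain) with a calcium-binding B subunit (Ppp3r1), and removes phosphates from NFAT factors, ion channels and endocytic proteins. In the cortex, CaMKII alpha is best known as a protein of excitatory neurons.

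Values are the log2 GCRMA values of the deposited table. Readings of 5 or less were treated as background. A gene was read from its probe set with the highest mean over the 15 arrays, and tested where that probe set exceeded 5 on at least 3 arrays. Pvalb, the defining calcium-binding protein of these cells, read 14.28 ± 0.20 at P40, against 3.62 ± 0.72 at P7 (SD, n = 3 each). Pvalb thus lay in the background at P7, where Gad1 averaged 13.88, Slc32a1 13.02 and Lhx6 12.11. Of 8 markers of parvalbumin interneurons, 6 were called higher in P40 minus P7. Lhx6 fell by 0.83 (limma adjusted p = 0.0027), and Erbb4 exceeded 5 on 1 array and was not tested. Slc17a7, which loads glutamate into vesicles of excitatory neurons, stayed between 2.46 and 2.59 as a mean at every age. Of 9 excitatory neuron markers, 7 never exceeded 5, Fezf2 did so only at P10, and the exception was Cux2, at 10.60 to 10.94 as a mean over the ages. Of 8 markers of other interneuron classes, 4 were tested. Cck rose by 3.55 and Reln fell by 2.70 in P40 minus P7 (limma adjusted p = 8.2e-07 and 7.8e-04), while Npy (1.36) and Sst (-3.19) did not pass. These classes were not absent, since Npy averaged 10.92 to 12.71 over the ages and Reln 12.04 at P7. Sst averaged 10.43 to 11.96 from P7 to P25 and exceeded 5 on 14 of the 15 arrays. Its P40 arrays were widely spread, at 8.34 ± 5.76 (SD, n = 3). None of 3 tested astrocyte markers passed, all 4 endothelial markers and 4 of 5 microglial ones never exceeded 5, and the fifth microglial one, Csf1r, averaged 3.28 at P40, against 5.11 at P7 (limma adjusted p = 0.0059). A change in a pooled sample can come from fewer cells of a type or from less RNA per cell, which cannot be told apart here.

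Features of the arrays that are not genes move with age or set arrays apart. The beta-actin control's 3′ minus 5′ log2 difference, which is larger where the amplified RNA is shorter, averaged 5.77 at P7 and 5.73 at P10, was 4.50 at P15 and 5.31 at P25, and reached its lowest mean, 3.93, in the P40 group. Spiked hybridization controls had medians of 2.44 and 2.48 on P15 replicates 2 and 3, against 8.77 to 12.19 on the other 13 arrays. The 3′ beta-actin control read 11.00 on P25 replicate 2, against 12.70 to 14.87 on the other 14. The part of these features in the results was not tested. Values with RNA length as a covariate and without those 3 arrays are given where they change a call of a member. The RNA length covariate is the beta-actin difference alone.

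Between P7 and P40, Camk4 RNA fell 8.67-fold and Ppp3ca RNA fell 1.80-fold, while Camk2a rose 4.24-fold, Camk2g 2.35-fold and Ppp3r1 2.76-fold. Camk2b, Camk2d and Ppp3cb did not pass the test. So 5 of the 8 members were called in P40 minus P7 (limma moderated test, adjusted p under 0.05 over 9663 genes), 3 higher and 2 lower. Over all tested genes 45.2% were called, 27.5% as higher and 17.6% as lower, so a change with age was common in these cells at large. The members' median log2 difference was 0.33 and that of all tested genes 0.18.

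**Figure D1:**
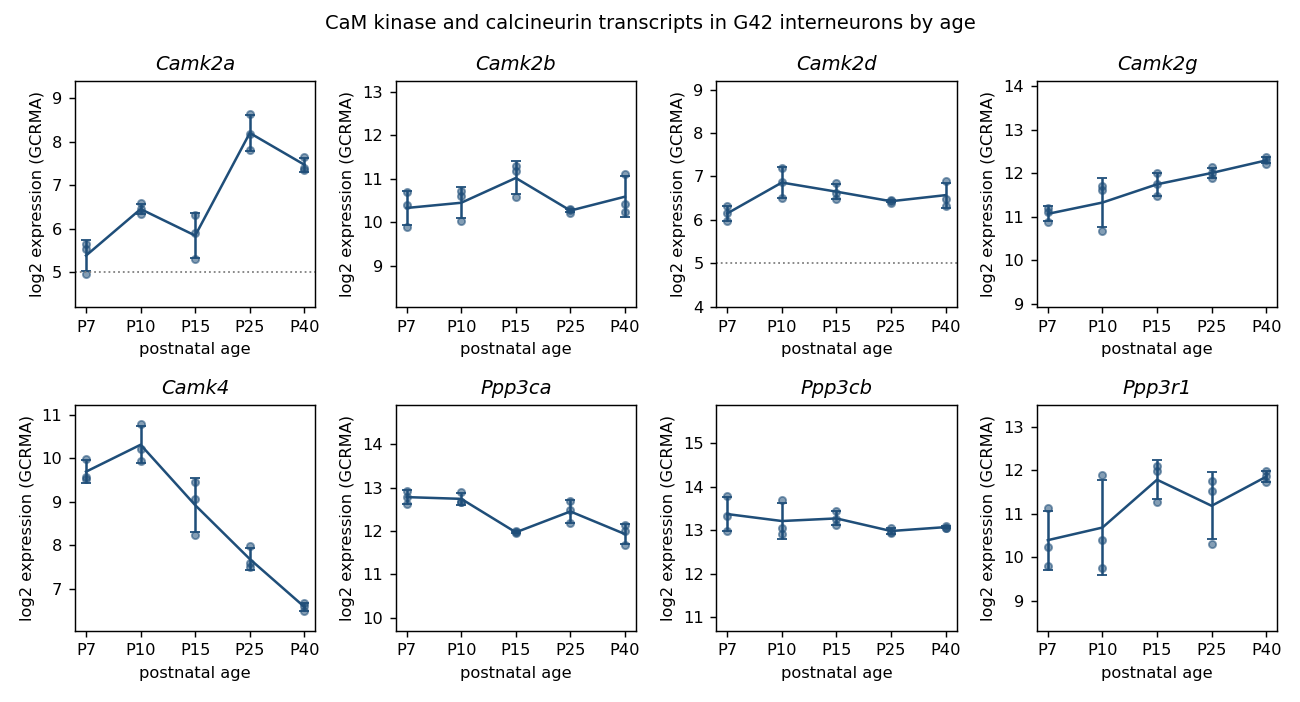
Log2 expression (GCRMA, vertical axes, all of the same span) of the 8 members against postnatal age. Points are the 3 arrays of an age, lines join the means, bars are the SD, and the dotted line is the background limit of 5. Camk4 declines after P10 to 6.58 at P40, Camk2a peaks at 8.20 at P25, and the P40 and P7 arrays of Camk2b and of Ppp3cb overlap.

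Camk2a, the alpha subunit of CaMKII, read 5.54, 5.64 and 4.96 on the P7 arrays and 6.58, 6.33 and 6.45 at P10. It read 5.89, 5.31 and 6.32 at P15, then 8.18, 7.81 and 8.63 at P25 and 7.40, 7.35 and 7.65 at P40. Every array of P25 and P40 lay above every array of the 3 younger ages, and 1 of the P7 arrays lay under the background limit. The P40 minus P7 log2 difference was 2.08 (SE 0.33, 95% interval 1.39 to 2.78, limma adjusted p = 1.4e-04). The largest step was P25 minus P15, at 2.36 (limma adjusted p = 0.0012), in which 4.86% of all genes were called. The P40 level was 0.74 below the P25 level, a difference that did not pass the test (limma adjusted p = 0.41).

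The P25 peak of Camk2a coincided with the highest level of oligodendrocyte markers. Summed on the linear scale over the 4 oligodendrocyte markers on the array, that level was 1530 to 3360 at P25 and 58.4 to 250 at P40, and at most 524 at the younger ages. Of these markers, 2 never exceeded 5, and Mbp and Mobp carried the P25 signal, at 11.21 and 7.47 as means. At P40 they read 6.52 and 2.99, while Camk2a read 7.47. The summed astrocyte markers also had their highest value at P25, at 40.5 to 959, against 32.6 to 37.1 at P40. At P10 they reached 655. The part of oligodendrocyte or astrocyte RNA in the P25 level of Camk2a was not tested. The summed excitatory markers were 1610 to 2320 at P40 and 1080 to 2720 at P7, ranges that overlap. Nearly all of this sum is Cux2, at 10.94 at P40 and 10.65 at P7 as means. The sum therefore cannot show whether RNA of the other excitatory markers changed. Read singly, 7 of the 9 on the array never exceeded 5 at any age, and Fezf2 did so only at P10. The part of excitatory neuron RNA in the level of Camk2a was not tested.

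Camk2a has 6 probe sets, and 4 of them never exceeded 5. The other tested one, 1437125_at, read 5.20, 5.91 and 5.25 at P40, against 3.38, 3.33 and 4.24 at P7, where it lay under the limit on all arrays. Its log2 difference of 1.80 passed the test (limma adjusted p = 0.0080 over 15381 probe sets), and no fold is given because the P7 side is background. The call was lost with values under 5 set to 5, where the difference was 0.45, and with the RNA length covariate, where it was 1.31.

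Camk2g, the gamma subunit, rose in small steps, with 11.11, 10.88 and 11.21 at P7 and 10.68, 11.61 and 11.71 at P10. It read 11.49, 12 and 11.76 at P15, 12.14, 12.01 and 11.89 at P25, and 12.22, 12.37 and 12.30 at P40. All P40 arrays lay above all P7 arrays, while neighbouring ages up to P25 overlapped. The P40 minus P7 difference was 1.23 (SE 0.24, 95% interval 0.73 to 1.73, limma adjusted p = 7.0e-04), and none of its 4 steps passed the test alone. The second Camk2g probe set, 1423942_a_at, gave 1.83 (limma adjusted p = 2.5e-04), at 10.95 ± 0.15 at P40, against 9.12 ± 0.55 at P7 (SD, n = 3 each).

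Camk2b, the beta subunit, which ties CaMKII to actin, read 10.23, 11.12 and 10.42 at P40, against 10.69, 10.40 and 9.90 at P7. These arrays overlap, and the difference of 0.26 did not pass (limma adjusted p = 0.48). Its 95% interval of -0.35 to 0.88 leaves room for a change in either direction. The highest Camk2b mean was 11.02 ± 0.38 at P15 (SD, n = 3), and the P25 minus P15 step of -0.75 did not pass either (limma adjusted p = 0.16). Camk2b is read from 1 probe set.

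Camk2d, the delta subunit, read 6.49, 6.89 and 6.33 at P40, against 5.98, 6.15 and 6.33 at P7, where the highest P7 array met the lowest P40 array to 2 decimals. The difference of 0.41 (95% interval -0.18 to 1.01) did not pass the test (limma adjusted p = 0.24). The mean was highest at P10, at 6.86 ± 0.35 (SD, n = 3), 0.71 above P7, with an unadjusted p of 0.024 and a limma adjusted p of 0.20. Its other tested probe sets, 1422659_at and 1460630_at, gave differences of -0.21 and 0.51 that did not pass, and the remaining 4 of its 7 probe sets were not tested because they seldom or never exceeded 5.

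Camk4, the nuclear kinase, had the largest change of the members, as read per gene. It read 9.56, 9.99 and 9.53 at P7 and 10.78, 9.94 and 10.21 at P10. The P15 arrays read 9.06, 8.24 and 9.45, the P25 arrays 7.59, 7.97 and 7.49, and the P40 arrays 6.66, 6.48 and 6.59. Every P40 array lay below every P25 array, and every P25 array below every array of the younger ages. The P40 minus P7 difference was -3.12 (SE 0.32, 95% interval -3.80 to -2.44, limma adjusted p = 3.1e-06). With the RNA length covariate it was -2.97 (limma adjusted p = 1.8e-04). It ran from -3.20 to -2.97 when each array was left out in turn.

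The decline of Camk4 spread over 3 consecutive steps. P15 minus P10 was -1.39 (limma adjusted p = 0.017), in a step with 11.4% of all genes called. P25 minus P15 was -1.24 (limma adjusted p = 0.039). P40 minus P25 was -1.11, which did not pass (limma adjusted p = 0.14), in a step with 0.673% of genes called. The first 2 of these calls rest on few arrays. P15 minus P10 was -1.06 without P15 replicate 2 and -1.16 without P10 replicate 1 and not called in either case, and P25 minus P15 was -0.97 without P15 replicate 3, likewise not called. Camk4 has 5 probe sets and is read from 1439843_at, since the other 4 never exceeded 5.

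Ppp3ca, the alpha isoform of the catalytic subunit, read 12.79, 12.93 and 12.62 at P7 and 12.89, 12.66 and 12.66 at P10. It read 11.95, 12 and 11.97 at P15, 12.70, 12.48 and 12.18 at P25, and 11.99, 11.67 and 12.13 at P40. The P15 and P40 arrays lay below all P7 and P10 arrays, and the P25 arrays lay between or overlapped the younger ones. The P40 minus P7 difference was -0.85 (SE 0.17, 95% interval -1.20 to -0.50, limma adjusted p = 8.1e-04). P15 minus P10 was -0.76 (limma adjusted p = 0.014), and without P10 replicate 1 it was -0.69 and without P15 replicate 2 it was -0.78, neither of them called.

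The 3 Ppp3ca probe sets all had lower means at P40 than at P7, but their courses differed at P25. There 1426401_at, the one read for the gene, averaged 12.45, against 11.97 at P15. Probe set 1438478_a_at averaged 10.91, against 11.21 at P15, and 1452056_s_at 10.99, against 10.81. None of them was called in P25 minus P15. Probe set 1452056_s_at gave -1.39 (limma adjusted p = 1.7e-04), with 10.72, 10.82 and 10.90 at P40, against 12.23, 12.31 and 12.07 at P7. Probe set 1438478_a_at gave -0.41 and did not pass (limma adjusted p = 0.21), since its P40 arrays, at 11.59, 11.54 and 11.66, overlapped the P7 arrays, at 11.65, 11.87 and 12.49.

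Ppp3cb, the beta isoform of the catalytic subunit, did not pass in its brightest probe set. Probe set 1428473_at read 13.10, 13.04 and 13.06 at P40, against 13.78, 13.33 and 12.99 at P7. The groups overlap, the difference was -0.30 (95% interval -0.73 to 0.13, limma adjusted p = 0.24), and the P7 arrays were the more spread. It was called lower with equal array medians (-0.52, limma adjusted p = 0.028) and with cell number as a covariate (-0.54, limma adjusted p = 0.036). Probe set 1428474_at gave -0.38 and did not pass (95% interval -1.11 to 0.35, limma adjusted p = 0.39).

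The remaining tested Ppp3cb probe set behaved otherwise. Probe set 1433835_at read 8.91, 7.70 and 8.07 at P7 and 8.87, 9.95 and 10.59 at P10. It read 10.73, 10.58 and 10.78 at P15, 11.67, 11.54 and 10.89 at P25, and 11.69, 10.98 and 11.40 at P40. All arrays from P15 on lay above all P7 arrays, by a P40 minus P7 difference of 3.13 (SE 0.40, 95% interval 2.28 to 3.98, limma adjusted p = 3.2e-05), or 8.75-fold. It was 2.81 with the RNA length covariate (limma adjusted p = 0.0017) and 2.87 to 3.47 when each array was left out. The within-array log2 difference between this probe set and 1428473_at was -5.14 at P7 and -3.41 at P10, then -2.57 at P15, with -1.61 on the P25 arrays and -1.71 on the P40 arrays. The position of each probe set along the transcript is not given in the sources used here, and whether these probe sets read the same transcripts was not tested.

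**Figure D2:**
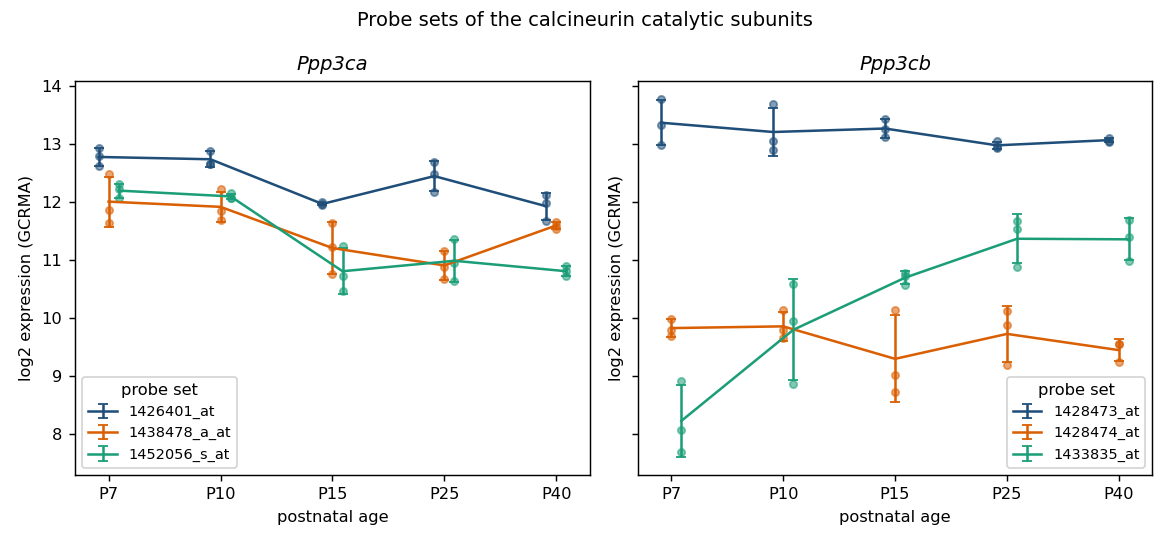
Log2 expression (GCRMA, vertical axis) of the tested probe sets of Ppp3ca (left) and Ppp3cb (right) against postnatal age. Points are arrays, lines join the means of 3 arrays, and bars are the SD. Probe set 1433835_at of Ppp3cb climbs to 11.36 at P40, against 8.23 at P7, while the other 2 probe sets of the gene have P40 means slightly below their P7 means.

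Ppp3r1, the calcium-binding regulatory subunit, had the widest spread of the members. It read 11.13, 10.23 and 9.80 at P7, 9.76, 10.39 and 11.90 at P10, and 11.27, 11.97 and 12.10 at P15. At P25 it read 11.74, 11.51 and 10.30, and at P40 11.87, 11.72 and 11.97. The P40 arrays lay above the P7 arrays, by 1.46 (SE 0.49, 95% interval 0.41 to 2.52, limma adjusted p = 0.025), the P15 arrays lay above the P7 arrays too, and the P10 and P25 arrays overlapped both ends. The call was lost with the RNA length covariate (0.72), with cell number as a covariate (0.84), and also on leaving out, at P7, replicate 2 (1.38) or replicate 3 (1.17), and at P40, replicate 1 (1.46) or replicate 3 (1.41). The other Ppp3r1 probe set, 1421786_at, exceeded 5 on 3 arrays, all at P7 or P10, and gave -0.41, which did not pass.

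Of the 31 member probe sets, 17 were tested, and 9 of these were called in P40 minus P7, 6 higher and 3 lower (52.9%, against 41.9% of all 15381 tested probe sets). The 14 others were not tested, and 11 of them never exceeded 5, with values from 1.98 to 4.81. All 8 genes were tested, since each had at least 1 probe set past the filter.

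**Figure D3:**
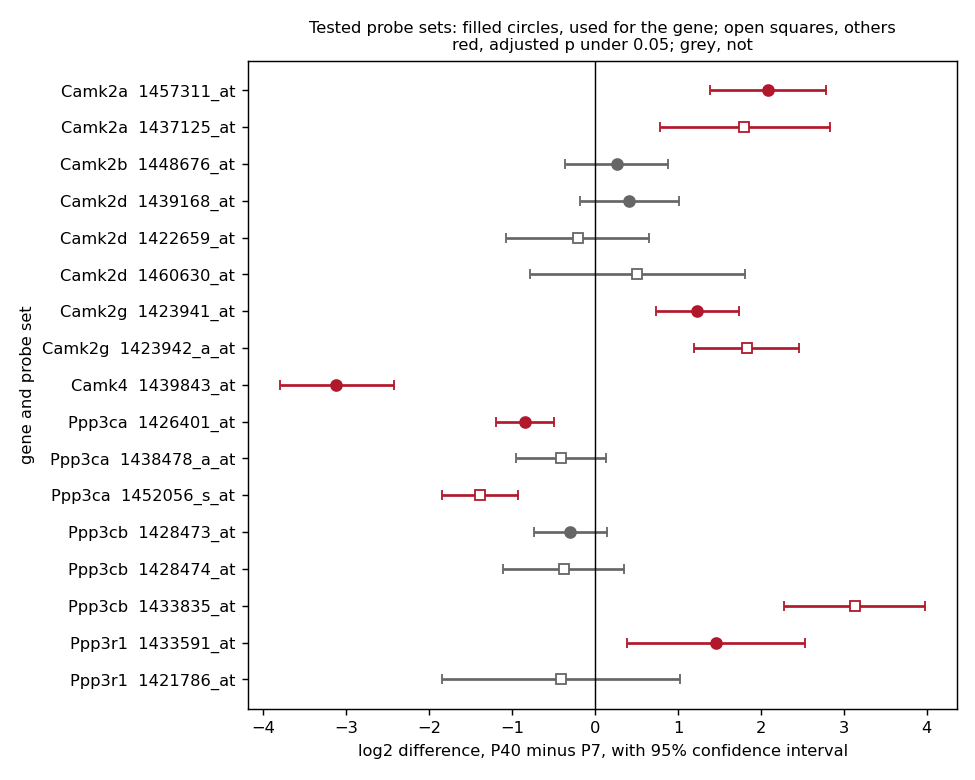
Log2 difference, P40 minus P7 (horizontal axis), of the 17 tested probe sets of the members, with 95% confidence intervals. Filled circles are the probe sets read for the gene, open squares the others, red marks an adjusted p under 0.05. The probe sets of Camk2g lie on the same side of 0, as do those of Camk2a and Ppp3ca, while those of Camk2d, Ppp3cb and Ppp3r1 lie on both sides.

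By step, with each gene read from its brightest probe set, no member was called in P10 minus P7, when 3.6% of all genes were. There 2 had an unadjusted limma p under 0.05 (Camk2a and Camk2d). In P15 minus P10, 2 members were called, both lower (Camk4 and Ppp3ca), in a step with 11.4% of all genes called. In P25 minus P15, 2 were called, Camk2a higher and Camk4 lower, against 4.86% of all genes. In P40 minus P25, with 0.673% of all genes called, no member was called, and 3 had an unadjusted limma p under 0.05 (Camk2a, Camk4 and Ppp3ca, all lower at P40). The moderated F test over the 5 ages called 4 members, Camk2a (limma adjusted p = 3.7e-05), Camk2g (0.0032), Camk4 (2.5e-06) and Ppp3ca (9.7e-04), against 47.2% of all genes. Ppp3r1 missed it (limma adjusted p = 0.067), as did Camk2b (0.19), Camk2d (0.26) and Ppp3cb (0.43). Probe set 1433835_at of Ppp3cb, not the one read for the gene, was called by the F test over the probe sets (limma adjusted p = 1.0e-04). It was also called in P10 minus P7, narrowly and with overlapping arrays, at 1.58.

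Whether subunits of 1 enzyme changed unequally was asked within arrays, from the log2 difference between 2 genes on each array. The 6 arrays of P25 and P40 were compared with the 6 of P7 and P10 in 9 pairs by a two-sided exact permutation test, adjusted over the 9 pairs, in which the smallest possible unadjusted p is 0.0022. These differences show unequal change and say nothing of which gene is the more abundant. In all, 7 of the 9 pairs passed.

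Within CaMKII, Camk2a gained on Camk2b by 1.87 (exact permutation p = 0.0043, adjusted 0.0097) and on Camk2d by 1.93 (exact permutation p = 0.0022, adjusted 0.0097). With probe sets averaged these gains were 0.69 and 0.84 (exact permutation adjusted p = 0.023 and 0.0065). The averages of Camk2a and Camk2d missed the filter, since most of their probe sets seldom or never exceeded 5. These averaged values therefore cannot show whether the gains hold. Camk2g gained on both as well, since Camk2b minus Camk2g changed by -0.91 (exact permutation p = 0.0087, adjusted 0.016) and Camk2d minus Camk2g by -0.96 (exact permutation p = 0.0022, adjusted 0.0097). Camk2a gained on Camk2g by 0.96 (exact permutation p = 0.032, adjusted 0.042), a call that was lost in 8 of the 12 leave-outs of 1 array. It turned to -0.24 when probe sets were averaged, a value that rests on the same Camk2a average. Camk2b minus Camk2d changed by 0.05 (exact permutation p = 0.85), with older arrays from 3.75 to 4.23 inside the younger range of 2.83 to 4.71.

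Within calcineurin, the regulatory subunit gained on both catalytic subunits, each gene read from its brightest probe set. No pair was tested with RNA length or cell number as a covariate. With these, the P40 minus P7 difference of Ppp3r1 alone was 0.72 and 0.84, neither called. Ppp3ca minus Ppp3r1 changed by -1.55 (exact permutation p = 0.015, adjusted 0.023), or by -0.81 with probe sets averaged, and Ppp3cb minus Ppp3r1 by -1.25 (exact permutation p = 0.0043, adjusted 0.0097). The Ppp3cb pair depends on the probe set of Ppp3cb, and with probe sets averaged its value was 0.31. Ppp3ca minus Ppp3cb changed by -0.30 (exact permutation p = 0.23, adjusted 0.25), and with probe sets averaged by -1.12 (exact permutation adjusted p = 0.0065).

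**Figure D4:**
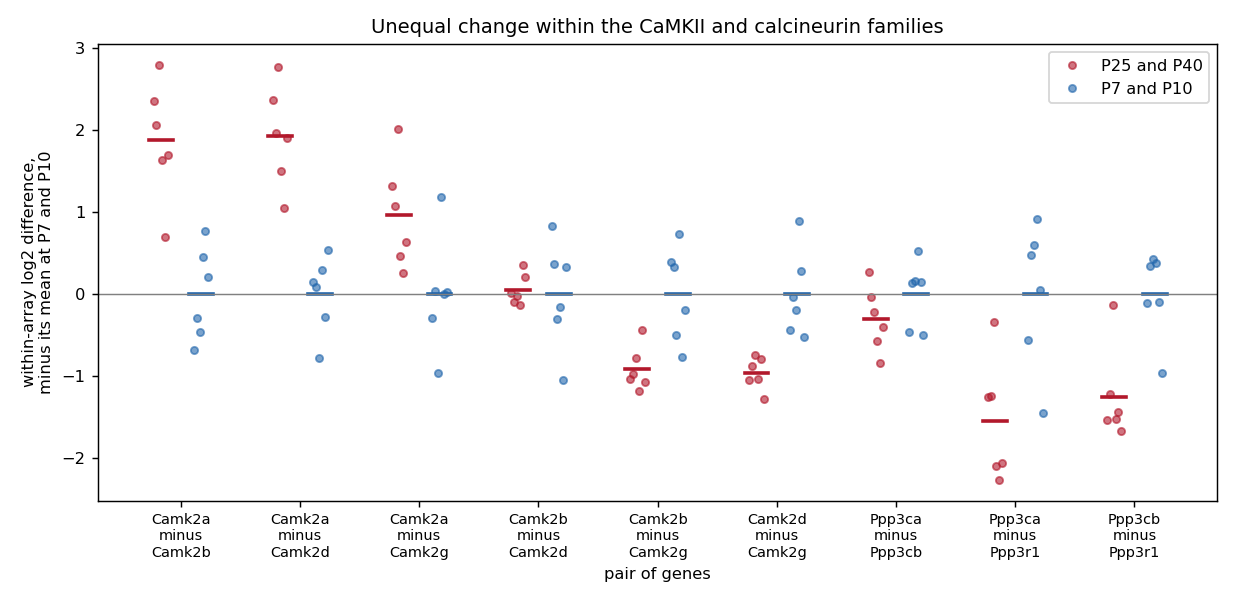
Within-array log2 difference between 2 members, shifted by its mean over the P7 and P10 arrays (vertical axis), for 9 pairs. Red points are the 6 arrays of P25 and P40, blue points the 6 of P7 and P10, and bars are means. Camk2a minus Camk2d separates fully, while Camk2b minus Camk2d overlaps.

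Of 72 other genes written down for the pathway, 61 had a single-gene probe set and 55 were tested. In P40 minus P7, 14 of these were higher, 12 lower and 29 did not pass (47.3%, against 45.2% of all genes), with a median of -0.23. The 3 calmodulin genes were not analysed here.

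Among 5 genes for proteins that hold back calmodulin or CaMKII, 1 rose, 2 fell and 2 did not pass. Pcp4l1, a small calmodulin-binding protein, averaged 10.34 at P40, against 4.22 at P7 (limma adjusted p = 1.1e-05), and no difference is given because the P7 mean lies under the background limit. Its relative Pcp4 fell by 1.49 (limma adjusted p = 0.022) and Camk2n1, a peptide inhibitor of CaMKII, fell by 0.93 (limma adjusted p = 0.013). The P40 and P7 arrays of Pcp4 overlapped. Both calls were lost with cell number as a covariate (Pcp4 -1.36 and Camk2n1 -0.74, limma adjusted p = 0.072 and 0.067) and with the RNA length covariate (Pcp4 -1.47 and Camk2n1 -0.54, limma adjusted p = 0.11 and 0.25). Camk2n2 gave 0.12 and did not pass. Nrgn, a neuronal calmodulin-binding protein, gave -0.91 and did not pass in P40 minus P7, but the F test over the 5 ages called it (limma adjusted p = 2.1e-04), with means of 5.18 at P7, 8.72 at P10 and 6.63 at P15, and 4.38 at P25 and 4.27 at P40.

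Among 10 tested CaM kinase kinases and other CaM kinases, 5 fell, 1 rose and 4 did not pass. Camkk2, an activating kinase of CaMKIV, read 11.08 ± 0.39 at P40, against 12.99 ± 0.72 at P7 (SD, n = 3 each, log2 difference -1.91, limma adjusted p = 3.5e-04). Cask, a synaptic scaffold with a CaM kinase-like domain, fell by 2.70 (limma adjusted p = 3.6e-05). Camk1g, a kinase of the CaMKI group, rose by 2.80 (limma adjusted p = 5.9e-04). Camkk1, the other CaM kinase kinase, was not analysed here.

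Around calcineurin, Ppp3cc, a further catalytic isoform, gave 1.36 with a limma adjusted p of 0.049 and overlapping arrays, a call lost in 20 of 28 alternatives (0.99 with the RNA length covariate, limma adjusted p = 0.32), and Ppp3r2, a regulatory subunit known from testis, never exceeded 5. Of 6 tested regulators and anchors, 1 rose, 1 fell and 4 did not pass. Both that moved are calcineurin regulators of 1 family, Rcan2 with 1.41 (limma adjusted p = 2.5e-05) and Rcan1 with -0.90 (limma adjusted p = 0.017). Rcan2 read 13.91 at P40, against 12.50 at P7, and Rcan1 read 9.30 at P40, against 10.20 at P7.

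Of the downstream transcription factors, neither tested NFAT factor was called in P40 minus P7, with 0.00 for Nfatc2 and -0.83 for Nfatc3 (limma adjusted p = 1 and 0.22, both also over 0.05 unadjusted), and Nfatc1 and Nfatc4 never exceeded 5. Of 7 tested CREB pathway genes, 1 was called in that comparison, the CREB coactivator Crtc1, which fell by 1.33 (limma adjusted p = 0.0036). Creb1 itself gave 0.31 (limma adjusted p = 0.35). The F test over the 5 ages, which called 47.2% of all genes, called 5 of these 9 genes, namely Crem (limma adjusted p = 0.01), Atf4 (0.018), Nfatc3 (0.02), Crtc1 (0.02) and Crebbp (0.033).

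Proteins that these enzymes act on or work beside were taken in 2 lists. Of 6 endocytosis genes listed for calcineurin, 5 rose and none fell, where 27.5% of all genes were called higher. Whether each of the 6 is a substrate of calcineurin was not checked here. Among the 5 were Pacsin1, an adaptor of synaptic vesicle endocytosis, by 2.77 (limma adjusted p = 8.7e-07) and the vesicle-cutting GTPase Dnm1 by 1.20 (limma adjusted p = 1.1e-05). Amph gave 0.06. Of 8 tested CaMKII anchors and substrates, 2 rose, 2 fell and 4 did not pass. Those higher were the vesicle protein Syn1 (1.14, limma adjusted p = 0.0047) and the AMPA receptor subunit Gria1 (1.31, limma adjusted p = 0.016), and both calls were lost with the RNA length covariate (Syn1 0.88, limma adjusted p = 0.089, and Gria1 0.97, limma adjusted p = 0.19). Those lower were the SNARE protein Stx1a (-3.02, limma adjusted p = 2.7e-05) and the actin crosslinker Actn1 (-1.60, limma adjusted p = 8.3e-04).

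Among 10 tested genes of protein phosphatases 1 and 2A, the other large phosphatases of synapses, 3 rose, 1 fell and 6 did not pass. Ppp1r1a, an inhibitor of protein phosphatase 1 that calcineurin dephosphorylates, fell by 1.97 (limma adjusted p = 1.4e-04). Igbp1, a binding protein of the phosphatase 2A catalytic subunit, rose by 0.73 (limma adjusted p = 0.0082), and Ppp2r5a, a targeting subunit of that enzyme, rose by 1.29 (limma adjusted p = 0.0097). The Igbp1 call was lost with equal array medians (0.52, limma adjusted p = 0.053) and with the RNA length covariate (0.72, limma adjusted p = 0.06), and that of Ppp2r5a with cell number as a covariate (1.03, limma adjusted p = 0.056).

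**Figure D5:**
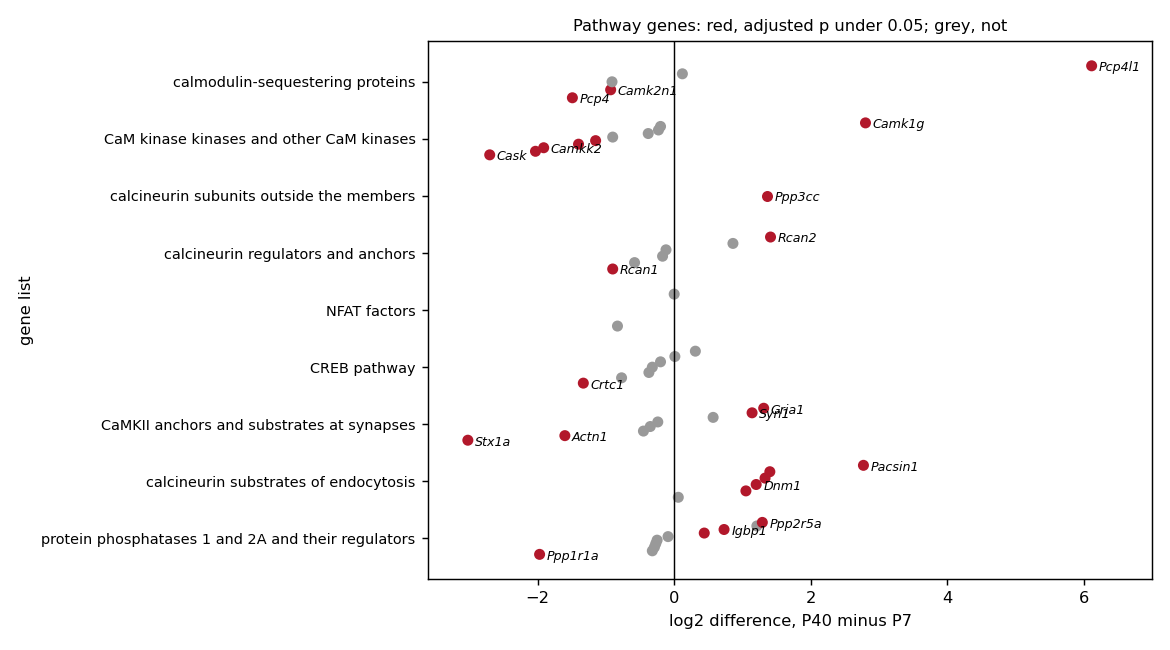
Log2 difference, P40 minus P7 (horizontal axis), of the 55 tested pathway genes, 1 row for each list. Each point is a gene, red with an adjusted p under 0.05 and grey otherwise, spread vertically for legibility. In the endocytosis row 5 of 6 genes lie to the right and are red, and in the row of other CaM kinases 5 of 10 lie to the left and are red.

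Genes whose values over the 15 arrays were most like a member's are given as a description. The arrays share ages, so most of such a correlation can come from any course over age. For Camk4 they were Scarb1 (Pearson r = 0.953), Mpv17l (0.952) and Mpzl1 (0.950). For Camk2a they were Rom1 (0.909), Cdk7 (0.906) and Rasd2 (0.899), of which Rom1 and Rasd2 lay under 5 at P7, at 3.84 and 2.42. For Camk2g they were Ksr1 (0.968), Cops7a (0.955) and Mcfd2 (0.954), of which Ksr1 lay under 5 at P7 and P10, at 3.26 and 3.98. For Ppp3ca they were Dzip1 (0.917), Wasf1 (0.909) and Stard4 (0.907).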

How the data were processed

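The authors deposited 1 log2 value per probe set and array, made with GCRMA per the submitters' processing notes. The version of GCRMA is not given in the sources used here. GCRMA models background from probe sequence, so dim probe sets pile up near a floor. Per the labels, 0.3 to 1 ng of RNA went through 2 rounds of T7 amplification, which favours 3′ ends. Arrays have no sequencing depth, and their number limits the precision.

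Of 45101 probe sets, 34945 carried 1 gene in the platform annotation, 932 several and 9160 none, and 64 were controls. 1 probe set that Ppp3r1 shares with another gene was not used. Values were used as deposited. limma 3.58.1 (R 4.3.3) fitted a means model over the 5 ages to 9663 genes, with a variance trend, two-sided tests and Benjamini-Hochberg adjustment within each contrast, and again to 15381 probe sets. Residual degrees of freedom were 10. Pairs were tested with scipy 1.17.1, and pandas 2.3.3 and matplotlib 3.10.9 under Python 3.11.15 served for tables and figures. On simulated data for P40 minus P7 with 9663 genes, the fit called 32% of 100 genes changed by 1 and 73% of 100 changed by 2 (log2), with 6 false calls. No other gene was changed, a far smaller share than the 45.2% called in the real comparison. The Benjamini-Hochberg threshold depends on that share, so these percentages are not the power of the real comparison.

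Members, lists and tests were chosen with earlier results of these data known. Named were all members, in each list the 2 called genes of smallest adjusted p, up and down, the 3 genes most correlated with each member the F test called, and cell markers. Nrgn, Camk2n2, Camkk1, Amph, Creb1, Crem, Atf4, Crebbp, the NFAT genes, Ppp3cc and Ppp3r2 were named after their values were seen, except where the rule takes them. Replicate numbers do not pair the arrays, which come from different animals: over pairs of same-numbered arrays, correlations of deviations ran from -0.405 to 0.275.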

Additional observations from a re-analysis of the deposited data

How the results depend on the processing

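The P40 minus P7 calls of Camk2a, Camk2g, Camk4 and Ppp3ca held, in the same direction, under every alternative that could test them. Averaging probe sets left Camk2a, Camk2d and Camk4 untested, because their averages missed the filter, and 2 members were then called in P40 minus P7, 2 by the F test and 1 over all steps. Ppp3r1 was not called with probe sets averaged (0.53), cell number (0.84) or RNA length (0.72) as a covariate, and ran from 1.17 to 1.84 with each array left out. Ppp3cb was called at -0.52 with equal array medians and -0.54 with cell number, and turned to 0.32 with probe sets averaged. Camk2b turned to -0.30 with RNA length, and to 0 without P40 replicate 2 (range 0 to 0.44). Also with RNA length, probe sets 1460630_at of Camk2d, 1428474_at of Ppp3cb and 1421786_at of Ppp3r1 turned to -0.19, 0.13 and 0.54, and the last to 0.16 with cell number, none of them called.

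In place of 4 step calls over all members, 10 were made with array weights, 1 each with cell number, with RNA length and without P15 replicates 2 and 3 and P25 replicate 2, and 2 to 5 with each array left out (2 without P10 replicate 1 or P15 replicate 2). Camk4 P15 minus P10 was not called with cell number (-1.16), RNA length (-1.29) or without the 3 arrays (-1.25), and ran from -1.66 to -1.06. Camk4 P25 minus P15 was not called with equal medians (-1.23), no filter (-1.24), cell number (-1.38), RNA length (-1.30), the replicate block (-1.24, the one member call the block changed) or without the 3 arrays (-1.52). It ran from -1.57 to -0.97 with each array left out and lost its call without P15 replicate 1 (-1.16) or 3 (-0.97), P25 replicate 1 (-1.19), 2 (-1.38) or 3 (-1.14), or P40 replicate 1 or 3 (-1.24 each). Ppp3ca P15 minus P10 was not called with cell number (-0.89), RNA length (-0.74) or without the 3 arrays (-0.79), and ran from -0.80 to -0.69. The Camk2a step was called under all.

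Camk2a minus Camk2g was not called with quantile normalization (0.93) or without the 3 arrays (0.94), turned to -0.24 with probe sets averaged, and ran from 0.75 to 1.20, its call lost without any one array of P7 or P25, or P10 replicate 2 or 3. Camk2b minus Camk2d ran from -0.16 to 0.22, turning to -0.01 without P7 replicate 3 or P40 replicate 2 and to -0.16 without P10 replicate 2. With probe sets averaged, Ppp3ca minus Ppp3cb was called (-1.12) and Ppp3cb minus Ppp3r1 turned to 0.31. Among all genes, 4365 were called, 8295 with no filter, 2652 with RNA length, 4159 with the replicate block and 3486 to 4523 with each array left out. With RNA length 17 pathway genes were called in place of 26 (21 to 26 with arrays left out), and Ppp3cc lost its call in 20 of 28 alternatives. Calls were also lost by leaving out 1 array for Pcp4 (P7 replicate 2, -1.25, or P40 replicate 1, -1.12, or 3, -1.36), Gria1 (P7 replicate 1, 1.04, or P40 replicate 1, 1.17, or 3, 1.23), Rcan1 (P7 replicate 1, -0.80, or 2, -0.86), Camk2n1 (P7 replicate 3, -0.71) and Ppp2r5a (P40 replicate 3, 1.08). Scaling shifted the median of all genes from 0.18 to 0.01 (quantile) and -0.05 (equal medians), and the share of higher calls from 61.0% to 51.4% and 49.2%. The cause of these changes was not tested.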
